A study of Rattus norvegicus with 24 samples.

Results

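A set of 8 genes of acetylcholine signalling was followed across a rat model of levodopa-induced dyskinesia. They are Chat, which encodes choline acetyltransferase, the enzyme that makes acetylcholine; the nicotinic receptor subunit genes Chrna4, Chrna5, Chrna6, Chrnb2 and Chrnb3; and the muscarinic receptor genes Chrm4 and Chrm5. Members were chosen by name, with earlier results of these data known. A gene's level is the mean of the deposited log2 values over the array probe sets (exon-level groups of probes) whose annotation names that gene alone. They are 8 of 16582 genes measured in this way, and 62 of 172924 probe sets that name 1 gene: 15 for Chat, 8 each for Chrna4, Chrnb2 and Chrnb3, 10 for Chrna5, 7 for Chrna6, 2 for Chrm4 and 4 for Chrm5.

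The rats were adult male Sprague Dawley animals, and tissue punched from the lateral striatum and from the substantia nigra was hybridised to Affymetrix exon arrays, 3 arrays per group and tissue. Dyskinetic rats had a 6-hydroxydopamine lesion on 1 side, received levodopa daily and developed the involuntary movements that the drug can cause. Non-dyskinetic rats had the same lesion and the same drug and did not develop them. Vehicle rats had the lesion and received saline in place of levodopa. Intact rats received saline in place of the toxin, and levodopa. Lesions were accepted at a striatal dopamine loss above 90% together with behavioural signs. No group was both unlesioned and untreated, so every comparison of vehicle with intact rats differs in the lesion and in the drug at once. The side punched, the dose and the time since the last dose were not given in the labels. Of 14 animals, 10 gave both tissues and 4 gave 1 tissue.

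Acetylcholine acts in the striatum mainly from local cholinergic interneurons, large cells that make up a small share of striatal neurons and fire tonically. It binds nicotinic receptors, which are ion channels built of several subunits, and muscarinic receptors, which couple to G proteins. Dopamine neurons of the nigra carry a set of nicotinic subunits of their own: the alpha6 and beta3 subunits (Chrna6 and Chrnb3) are largely restricted to catecholamine and visual neurons, and they assemble with alpha4, alpha5 and beta2 (Chrna4, Chrna5 and Chrnb2), which are found in many other neurons. The M5 receptor (Chrm5) is a stimulatory muscarinic receptor made by dopamine neurons, and the M4 receptor (Chrm4) is an inhibitory one made by striatal projection neurons of the direct pathway and by cholinergic interneurons.

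Promoters are shown for Chrna4, Chrna5 and Chrnb2, which all fell in the lesioned nigra, and for Chat with Slc18a3, the vesicular acetylcholine transporter gene, because Slc18a3 lies inside the Chat gene on the same strand and starts downstream of the Chat start. Each sequence runs from 250 bases before to 50 bases after the transcript start that RefSeq's promoter table uses in rat assembly GRCr8, 5′ to 3′ on the gene's strand; for Chrna4 that start lies inside the annotated span of the gene, not at its end. Capitals mark a GC box (GGGCGG or its reverse complement CCGCCC) or a half-site of the cyclic AMP response element (TGACG or its reverse complement CGTCA). Both were searched on both strands, and these 2 motifs do not overlap each other. The regions are chr16:7723367-7723666 (minus strand) for Chat, chr16:7722765-7723064 (minus strand) for Slc18a3, chr3:188534477-188534776 (minus strand) for Chrna4, chr8:64265629-64265928 (plus strand) for Chrna5 and chr2:177487257-177487556 (minus strand) for Chrnb2.
Chat: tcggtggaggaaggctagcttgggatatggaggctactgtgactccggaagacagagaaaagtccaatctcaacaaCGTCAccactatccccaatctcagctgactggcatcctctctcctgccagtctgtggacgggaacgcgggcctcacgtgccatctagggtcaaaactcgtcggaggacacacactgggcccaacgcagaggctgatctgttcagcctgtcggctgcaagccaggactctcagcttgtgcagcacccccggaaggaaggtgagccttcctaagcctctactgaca
Slc18a3: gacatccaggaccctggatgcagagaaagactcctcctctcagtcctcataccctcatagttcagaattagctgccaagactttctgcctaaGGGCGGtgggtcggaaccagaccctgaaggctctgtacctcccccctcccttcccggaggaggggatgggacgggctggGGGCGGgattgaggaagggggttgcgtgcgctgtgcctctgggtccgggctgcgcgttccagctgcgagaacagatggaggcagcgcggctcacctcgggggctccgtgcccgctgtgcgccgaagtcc
Chrna4: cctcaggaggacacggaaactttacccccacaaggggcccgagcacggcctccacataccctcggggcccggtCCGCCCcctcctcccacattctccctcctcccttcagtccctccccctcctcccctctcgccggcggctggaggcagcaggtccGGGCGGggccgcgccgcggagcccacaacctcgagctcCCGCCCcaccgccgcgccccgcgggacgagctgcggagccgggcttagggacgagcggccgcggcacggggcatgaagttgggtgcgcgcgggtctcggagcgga
Chrna5: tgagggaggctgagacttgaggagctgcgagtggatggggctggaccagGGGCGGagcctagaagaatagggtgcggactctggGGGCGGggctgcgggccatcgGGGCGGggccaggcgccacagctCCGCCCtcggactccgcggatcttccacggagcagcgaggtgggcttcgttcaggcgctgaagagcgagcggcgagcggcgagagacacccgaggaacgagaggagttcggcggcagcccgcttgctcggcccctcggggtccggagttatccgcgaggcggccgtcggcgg
Chrnb2: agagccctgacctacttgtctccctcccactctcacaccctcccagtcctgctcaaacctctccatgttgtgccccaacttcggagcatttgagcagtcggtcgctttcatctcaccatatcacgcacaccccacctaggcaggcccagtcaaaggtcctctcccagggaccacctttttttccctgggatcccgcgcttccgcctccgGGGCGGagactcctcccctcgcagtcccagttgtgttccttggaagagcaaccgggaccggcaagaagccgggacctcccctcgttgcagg
The Chat window held 1 half-site and 0 GC boxes at a GC content of 57.3%, and the Slc18a3 window held 2 GC boxes and 0 half-sites at 64.3%. The 3 nicotinic windows held 3 GC boxes in Chrna4, 4 in Chrna5 and 1 in Chrnb2, at GC contents of 74.7%, 71.3% and 61.0%. Of 33469 rat promoters of this length, 33.1% held a GC box and 21.2% a half-site, so each motif is common, and a match describes the letters only. Promoters of 5 of the 8 members were in the table used; Chrm5, Chrna6 and Chrnb3 were not. In the same assembly Chrna6 and Chrnb3 are neighbours on chromosome 16, and Chrna5 neighbours Chrna3 and Chrnb4 on chromosome 8.

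The arrays carried the markers of their labelled tissues. The mean of 8 markers of striatal projection neurons lay between 11.51 and 11.67 on every striatal array. The mean of 12 dopamine neuron markers was 10.72, 10.75 and 10.99 on the intact nigral arrays. Replicate arrays correlated at 0.971 to 0.986 across the probe sets that name 1 gene. A pair of nigral arrays stood apart, both from vehicle rats. On vehicle array 1 the same 8 striatal markers averaged 9.31, against 7.98 to 8.32 on all other nigral arrays, and on vehicle array 3 a mean of 4 cortical markers was 8.55, against 7.08 to 7.29 on the others. The members' nigral comparisons with vehicle rats are therefore also given without this pair. In each tissue 12436 genes were tested, after the lowest 25% by mean level were left out. This kept 7 members in the nigra, all but Chat, and 6 in the striatum, all but Chrna6 and Chrnb3. In the nigra every group mean of the 7 tested members was above that level, whereas striatal Chrm5 passed through its lesioned groups, since its intact mean of 6.14 was below the limit of 6.21.

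In the nigra, every nicotinic member fell in the lesioned rats relative to intact rats, and so did Chrm5, while Chrm4 did not pass the test. The 6 genes fell in dyskinetic, in non-dyskinetic and in vehicle rats alike, by the test of limma with Benjamini-Hochberg adjustment over all genes. The share of all tested genes called lower was 10.5% in dyskinetic rats, 3.97% in non-dyskinetic rats and 7.26% in vehicle rats, each against intact rats, and 8.48% where the dyskinetic and non-dyskinetic groups were averaged and set against intact rats. Arrays of the lesioned and the intact group did not overlap for 6 members in dyskinetic, 7 in non-dyskinetic and 6 in vehicle rats, beside 40.1%, 23.9% and 32.7% of all genes. Since the members were chosen with earlier results of these data known, the median difference of the 7 tested members is a description. It was -2.38 between dyskinetic and intact rats, beside -0.02 for all tested genes. These comparisons share the 3 intact arrays, and the punches are bulk tissue, in which fewer cells of a type and less RNA per cell cannot be told apart.

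The largest falls among the members were those of Chrna6 and Chrnb3. Chrna6, the alpha6 subunit, read 8.24, 8.40 and 9.30 on the dyskinetic arrays, 10.12, 10.07 and 9.67 on the non-dyskinetic arrays, 8.59, 8.35 and 7.40 on the vehicle arrays, and 11.74, 12.05 and 11.63 on the intact arrays. Chrnb3, the beta3 subunit, read 7.88, 7.91 and 9.20 in dyskinetic rats, 9.99, 9.90 and 9.44 in non-dyskinetic rats, 8.55, 7.80 and 7.80 in vehicle rats, and 11.70, 12.10 and 11.73 in intact rats. For both genes no lesioned array reached the lowest intact array, and the non-dyskinetic arrays lay above every dyskinetic and every vehicle array.
Chrna6 was at 0.112 times the intact level in dyskinetic rats, a log2 difference of -3.16 ± 0.30 (SE; limma adjusted p = 3.3e-05). Its differences from intact rats were -1.85 ± 0.30 in non-dyskinetic rats (adjusted p = 0.003) and -3.69 ± 0.30 in vehicle rats (adjusted p = 1.3e-05), which is 0.277 and 0.0774 times the intact level. Chrnb3 was at 0.0877 times the intact level in dyskinetic rats (-3.51 ± 0.31, adjusted p = 2.2e-05), 0.239 times in non-dyskinetic rats (-2.07 ± 0.31, adjusted p = 0.0018) and 0.0721 times in vehicle rats (-3.79 ± 0.31, adjusted p = 1.3e-05). The order of the means was the same for both genes: intact, then non-dyskinetic, then dyskinetic, then vehicle, and the last pair differed by less than the larger of their SDs.

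**Figure D1:**
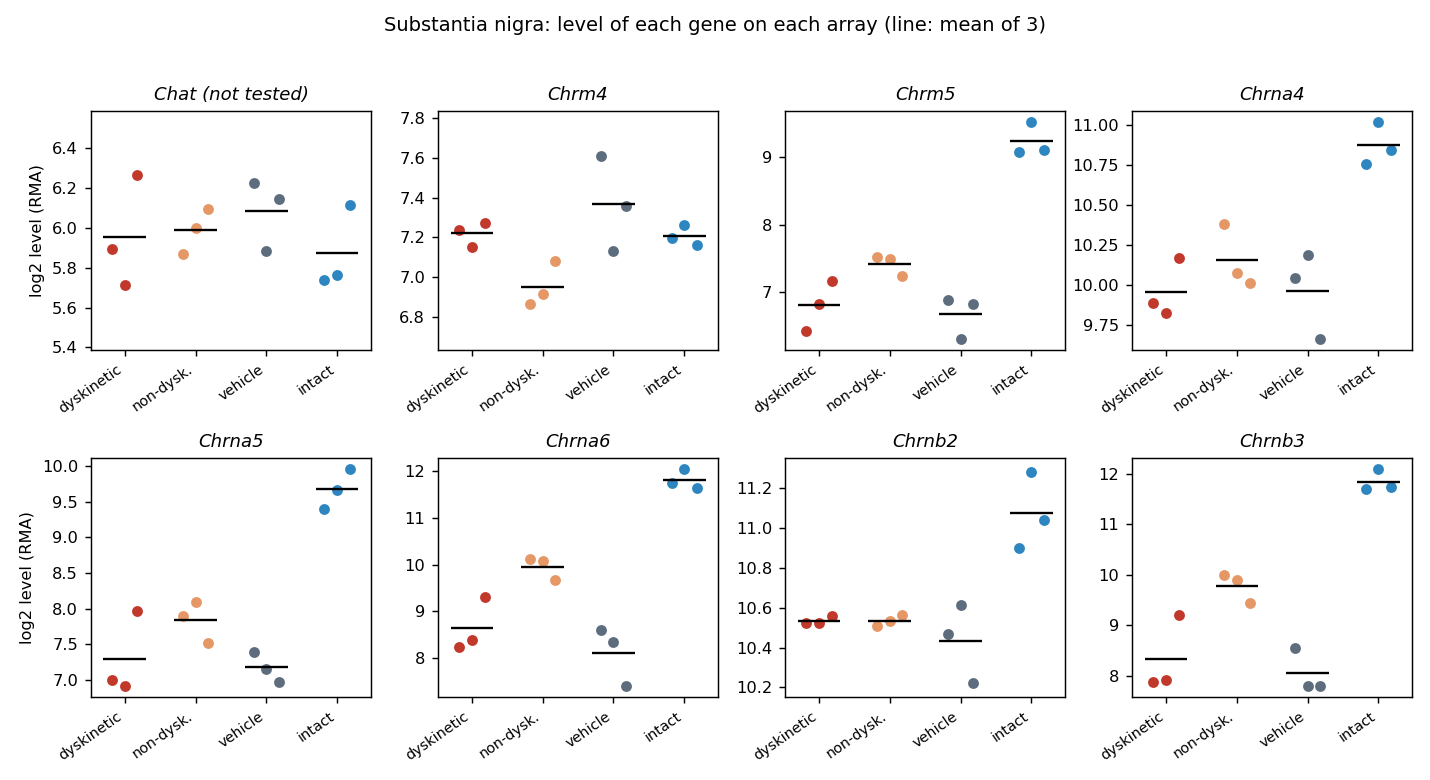
Log2 level (vertical axis) of each of the 8 genes on each nigral array, by group (horizontal axis); points are arrays and lines are means of 3. For Chrna6, Chrnb3, Chrna5 and Chrm5 all 9 lesioned arrays sit below the 3 intact arrays, and Chat and Chrm4 show no such step.

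Chrna5 and Chrm5 fell as well. Chrna5, an accessory subunit that does not form the acetylcholine site, read 7.00, 6.91 and 7.97 in dyskinetic rats, 7.90, 8.09 and 7.52 in non-dyskinetic rats, 7.40, 7.16 and 6.98 in vehicle rats, and 9.40, 9.66 and 9.96 in intact rats. Its difference from intact rats was -2.38 ± 0.25 in dyskinetic rats (adjusted p = 6.6e-05), -1.83 ± 0.25 in non-dyskinetic rats (adjusted p = 0.00086) and -2.50 ± 0.25 in vehicle rats (adjusted p = 3.8e-05). All lesioned arrays were below all intact arrays, and among the 3 lesioned groups neighbouring means of Chrna5 differed by less than their spread.
Chrm5 read 6.43, 6.82 and 7.17 in dyskinetic rats, 7.52, 7.49 and 7.24 in non-dyskinetic rats, 6.89, 6.31 and 6.82 in vehicle rats, and 9.08, 9.52 and 9.11 in intact rats. The M5 receptor gene thus stood at 0.186 times the intact level in dyskinetic rats (-2.43 ± 0.19, adjusted p = 1.4e-05), 0.284 times in non-dyskinetic rats (-1.82 ± 0.19, adjusted p = 0.00019) and 0.169 times in vehicle rats (-2.57 ± 0.19, adjusted p = 9.6e-06). As for Chrna6 and Chrnb3, non-dyskinetic arrays were above all other lesioned arrays.

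The falls of Chrna4 and Chrnb2 were smaller. Chrna4 read 9.89, 9.83 and 10.17 in dyskinetic rats, 10.38, 10.08 and 10.01 in non-dyskinetic rats, 10.05, 10.19 and 9.67 in vehicle rats, and 10.76, 11.02 and 10.85 in intact rats. Chrnb2 read 10.52, 10.52 and 10.56 in dyskinetic rats, 10.51, 10.53 and 10.56 in non-dyskinetic rats, 10.47, 10.62 and 10.22 in vehicle rats, and 10.90, 11.28 and 11.04 in intact rats. Only the intact group stood apart from its neighbour by more than the spread in either gene. For Chrna4 the log2 differences from intact rats were -0.91 ± 0.14 in dyskinetic rats (adjusted p = 0.00095), -0.72 ± 0.14 in non-dyskinetic rats (adjusted p = 0.0099) and -0.91 ± 0.14 in vehicle rats (adjusted p = 0.0012). For Chrnb2 they were -0.54 ± 0.10 (adjusted p = 0.0041) in dyskinetic rats, -0.54 ± 0.10 (adjusted p = 0.0091) in non-dyskinetic rats and -0.64 ± 0.10 (adjusted p = 0.0017) in vehicle rats. Some of these calls rested on single arrays: the Chrna4 call in non-dyskinetic rats was lost without intact array 2 (adjusted p = 0.067) or non-dyskinetic array 3 (adjusted p = 0.06), and that of Chrnb2 without intact array 2 (adjusted p = 0.053).

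The other nigral members did not show the fall. Chrm4 read 7.24, 7.15 and 7.27 in dyskinetic rats, 6.86, 6.91 and 7.08 in non-dyskinetic rats, 7.61, 7.13 and 7.36 in vehicle rats, and 7.20, 7.26 and 7.16 in intact rats. Its differences from intact rats were 0.01 (95% interval -0.21 to 0.23), -0.26 (-0.48 to -0.03) and 0.16 (-0.06 to 0.38) in dyskinetic, non-dyskinetic and vehicle rats, with adjusted p of 0.96, 0.20 and 0.34. Non-dyskinetic rats were lowest, and only their gap to the neighbouring group exceeded the spread. Chat read between 5.71 and 6.26 on all 12 nigral arrays, at percentile 18.4 of the genes by mean level, and was not tested in the nigra; fitted with no filter on low levels, its differences lay between -0.13 and 0.21.

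Averaged over dyskinetic and non-dyskinetic rats, the differences from intact rats were -2.50 for Chrna6, -2.79 for Chrnb3, -2.11 for Chrna5, -2.12 for Chrm5, -0.82 for Chrna4 and -0.54 for Chrnb2, all past the threshold (limma adjusted p at most 0.0018). Chrm4 gave -0.12 (adjusted p = 0.41) in that comparison.

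Without vehicle arrays 1 and 3, an alternative chosen after their marker levels were seen, all 7 tested members lay below intact rats in the remaining vehicle array. The differences were -3.46 for Chrna6, -4.04 for Chrnb3, -2.93 for Chrm5, -2.52 for Chrna5 and -0.69 for Chrna4. For Chrnb2 the difference was -0.46, against -0.64 with all vehicle arrays, and its call was lost. The sign of Chrm4 turned, from 0.16 to -0.08. With 1 vehicle array left, this fit takes that array to vary like those of the other groups.

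**Figure D2:**
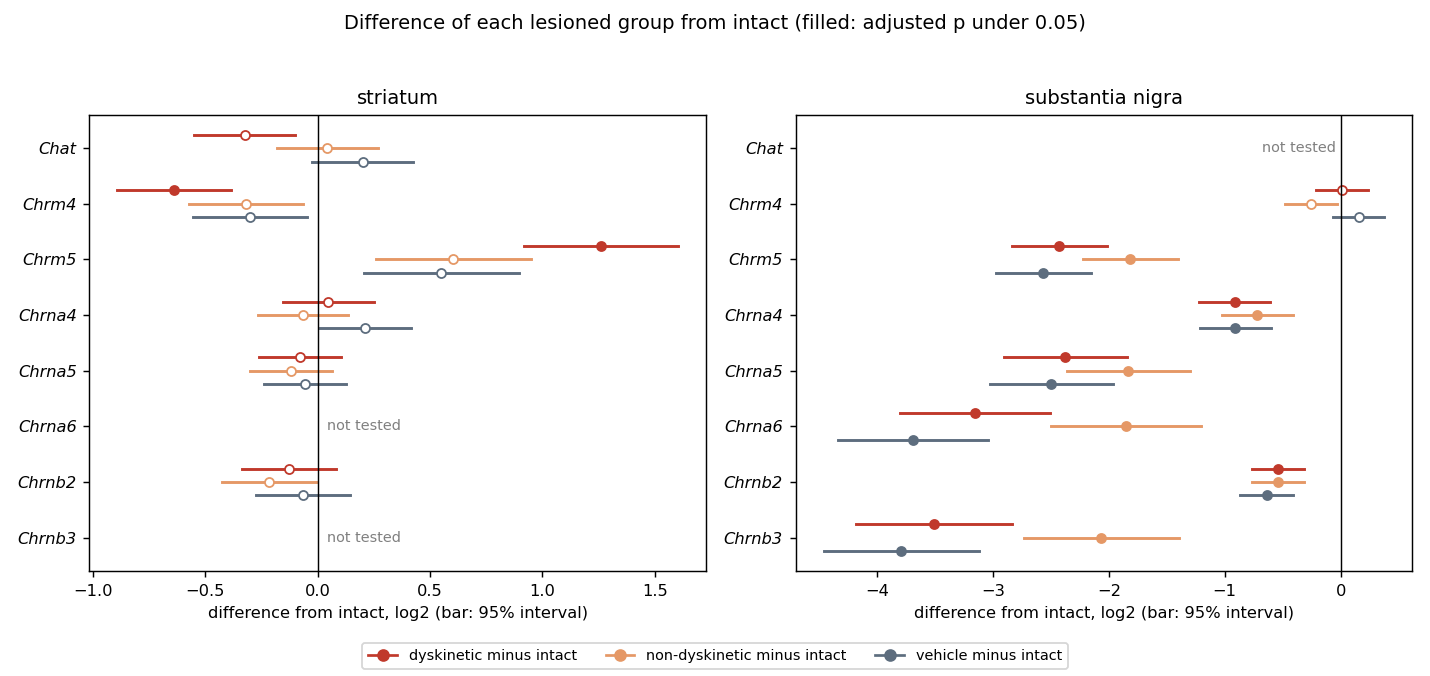
Log2 difference of each lesioned group from intact rats (horizontal axis) for each gene (vertical axis) in striatum and nigra, with 95% intervals from limma; filled points passed an adjusted p of 0.05. In the nigra 6 genes lie left of 0 in all 3 lesioned groups, and in the striatum the dyskinetic points of Chrm5 and Chrm4 are filled.

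The members that fell did so beside the dopamine neuron markers. These 12 markers were Th, Slc6a3, Slc18a2, Ddc, Pitx3, En1, Foxa2, Lmx1b, Aldh1a1, Ret, Slc10a4 and Kcnj6. Against intact rats all 12 were called lower in dyskinetic and in vehicle rats, beside 10.5% and 7.26% of all genes. In non-dyskinetic rats 11 of 12 were, beside 3.97%. Without vehicle arrays 1 and 3 the call of Foxa2 in vehicle rats was lost. All 12 markers still lay below intact rats in the remaining vehicle array, from -3.37 to -0.41. Their median differences from intact rats were -1.74, -1.27 and -2.14 in dyskinetic, non-dyskinetic and vehicle rats. Their mean level per array was 8.75, 8.84 and 9.46 in dyskinetic rats, 9.65, 9.59 and 9.35 in non-dyskinetic rats, 8.86, 8.76 and 8.58 in vehicle rats, and 10.72, 10.99 and 10.75 in intact rats, so dyskinetic array 3 was nearest to the non-dyskinetic arrays, as it was for Chrna6 and Chrnb3. Over the 9 lesioned arrays, which come from 3 groups, Pearson's r with this mean was 0.97 for Chrnb3, 0.97 for Chrna6, 0.93 for Chrna5, 0.88 for Chrm5, 0.70 for Chrna4, 0.42 for Chrnb2, 0.11 for Chat and -0.65 for Chrm4. These are descriptions, and the part of the marker loss in the receptor differences was not tested.

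**Figure D3:**
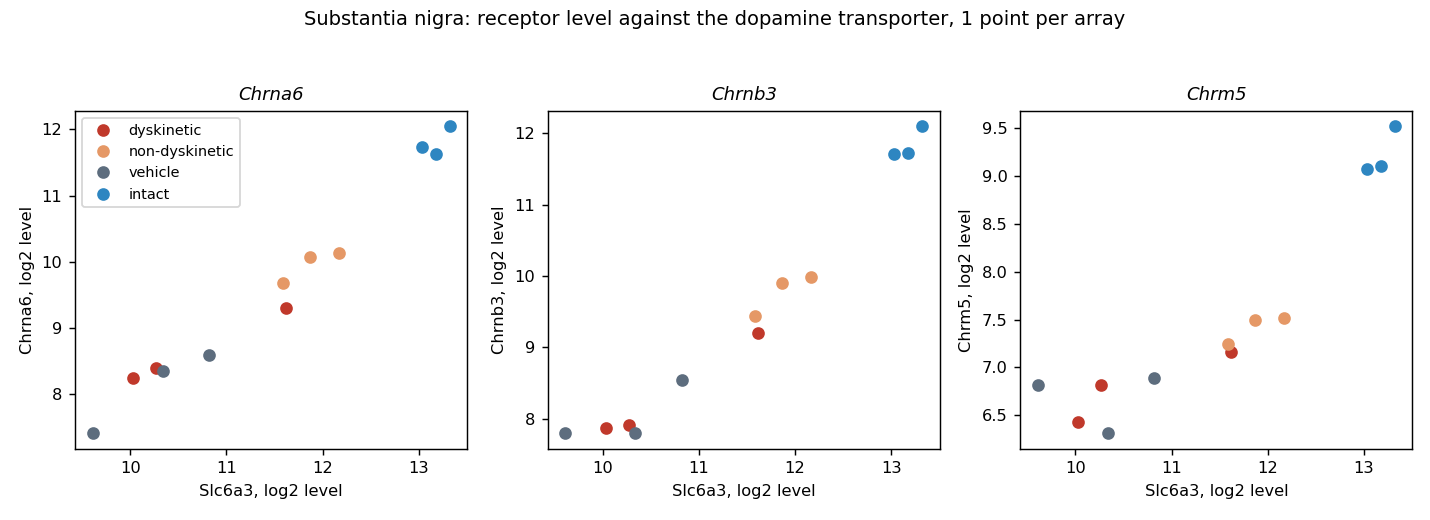
Log2 level of Chrna6, Chrnb3 and Chrm5 (vertical axes) against that of Slc6a3, the dopamine transporter gene (horizontal axis), with 1 point per nigral array, coloured by group. The 3 intact arrays lie at the upper right, and dyskinetic array 3 lies beside the non-dyskinetic arrays.

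Between the lesioned groups of the nigra, none of the 7 tested members passed the adjusted threshold in limma. In dyskinetic against non-dyskinetic rats 0.241% of all genes were called, and 5 of 7 members had an unadjusted p under 0.05, beside 14.6% of all genes. In the same comparison 4 of 7 members had arrays that did not overlap, beside 21.3% of all genes. Chrna6 differed by -1.31 ± 0.30 between dyskinetic and non-dyskinetic rats (adjusted p = 0.11), Chrnb3 by -1.45 ± 0.31 (adjusted p = 0.098) and Chrm5 by -0.61 ± 0.19 (adjusted p = 0.18), with all 3 dyskinetic arrays below all 3 non-dyskinetic arrays for each gene. Chrm4 was the 1 member whose dyskinetic arrays were all higher, by 0.27 ± 0.10 (adjusted p = 0.26). Leaving out arrays moved 2 of these values across the threshold: without dyskinetic array 3 the Chrnb3 difference was -1.88 (adjusted p = 0.018), and without vehicle arrays 1 and 3 the adjusted p of Chrna6 was 0.031.

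Non-dyskinetic rats against vehicle rats gave no call among 12436 genes in limma (0%), of which 999 (8.03%) had an unadjusted p under 0.05. Here 5 of 7 members did not overlap, beside 10.9% of all genes, and the same 5 had an unadjusted p under 0.05. The differences were 1.84 ± 0.30 for Chrna6 (adjusted p = 0.12), 1.73 ± 0.31 for Chrnb3 (adjusted p = 0.12), 0.75 ± 0.19 for Chrm5 (adjusted p = 0.33) and 0.66 ± 0.25 for Chrna5 (adjusted p = 0.55), and every non-dyskinetic array was above every vehicle array. The fifth was Chrm4, whose non-dyskinetic arrays were all below the vehicle arrays, by -0.41 ± 0.10 (adjusted p = 0.32). Without vehicle array 1, Chrna6 was called in this comparison (2.08, limma adjusted p = 0.0485). Without vehicle array 2, Chrna6 (1.96) and Chrm4 (-0.53) were called, both at an adjusted p of 0.0355. With array weights the same genes were called, at an adjusted p of 0.0485 and 0.0362. Dyskinetic rats against vehicle rats gave 2.22% of all genes and 0 of 7 members, of which none had an unadjusted p under 0.05 in limma, beside 20.9% of all genes; all 7 overlapped, beside 25.7% of all genes that did not. For Chrna6 that difference was 0.53 (95% interval -0.12 to 1.18), and for Chrm5 0.13 (-0.28 to 0.54).
The comparisons with vehicle rats were also fitted without vehicle arrays 1 and 3. Non-dyskinetic rats then differed from the remaining vehicle array by 1.61 for Chrna6, 1.97 for Chrnb3, 1.11 for Chrm5, 0.68 for Chrna5 and -0.18 for Chrm4, and dyskinetic rats by 0.30, 0.53, 0.50, 0.14 and 0.09 for the same genes. Chrna4 and Chrnb2 differed by -0.03 and -0.08 in non-dyskinetic rats, against 0.19 and 0.10 with all vehicle arrays, and by -0.23 and -0.08 in dyskinetic rats, against -0.01 and 0.10 with all. The sign thus depended on this pair of arrays for Chrnb2 in both comparisons, for Chrna4 in non-dyskinetic rats and for Chrm4 in dyskinetic rats.

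In the striatum 3 members were called, each in a comparison that includes dyskinetic rats. Chrm5 rose, Chat fell relative to vehicle rats, and Chrm4 fell relative to intact rats. The striatal nicotinic genes tested, Chrna4, Chrna5 and Chrnb2, passed the test in none of 7 comparisons, with adjusted p from 0.31 to 0.97. Arrays did not overlap for 2 of 6 tested members between dyskinetic and non-dyskinetic rats, for 3 between dyskinetic and vehicle rats and for 2 between dyskinetic and intact rats, beside 23.6%, 23% and 33.3% of all genes.

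Chrm5 was highest in dyskinetic rats. Its striatal level was 7.03, 7.62 and 7.55 in dyskinetic rats, 7.01, 6.37 and 6.87 in non-dyskinetic rats, 6.54, 6.87 and 6.67 in vehicle rats, and 6.13, 6.19 and 6.10 in intact rats. The means were 7.40 ± 0.32, 6.75 ± 0.34, 6.69 ± 0.17 and 6.14 ± 0.05 (SD, n = 3 each), and only the non-dyskinetic and vehicle means were within the spread of each other. Every dyskinetic array was above every array of the other groups, although dyskinetic array 1 and non-dyskinetic array 1 were nearly equal.
Chrm5 was higher in dyskinetic rats by 0.66 ± 0.16 than in non-dyskinetic rats (adjusted p = 0.027, 1.58-fold), by 0.71 ± 0.16 than in vehicle rats (adjusted p = 0.017, 1.64-fold) and by 1.26 ± 0.16 than in intact rats (adjusted p = 0.00014). No fold is given against intact rats, whose level lay below the limit used to leave out dim genes. It was 1 of 6 tested members called in the first comparison, where 5.26% of all genes were called, and 1 of 2 members called in each of the other comparisons, where 5.18% and 10.3% of all genes were. The levodopa-treated lesioned groups together were higher than intact rats by 0.93 ± 0.14 (adjusted p = 0.0014), a comparison that called 3.49% of all genes. Non-dyskinetic rats were higher than intact rats by 0.60 ± 0.16 (adjusted p = 0.35) and vehicle rats by 0.55 ± 0.16 (adjusted p = 0.26), with no overlap of arrays in either case. The call against non-dyskinetic rats was lost in 5 of 14 alternatives, among them the fits without dyskinetic array 2 (adjusted p = 0.15), dyskinetic array 3 (0.088), non-dyskinetic array 2 (0.12) or non-dyskinetic array 3 (0.053), and that against vehicle rats in 4 of 14, at most to an adjusted p of 0.097. In the striatal arrays of dyskinetic rats Th, tyrosine hydroxylase, was also higher, at 7.77, 7.39 and 6.84, against 6.30, 6.02 and 6.23 in non-dyskinetic, 6.69, 6.59 and 6.50 in vehicle and 6.21, 6.18 and 6.50 in intact rats; whether this bears on Chrm5 was not tested.

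**Figure D4:**
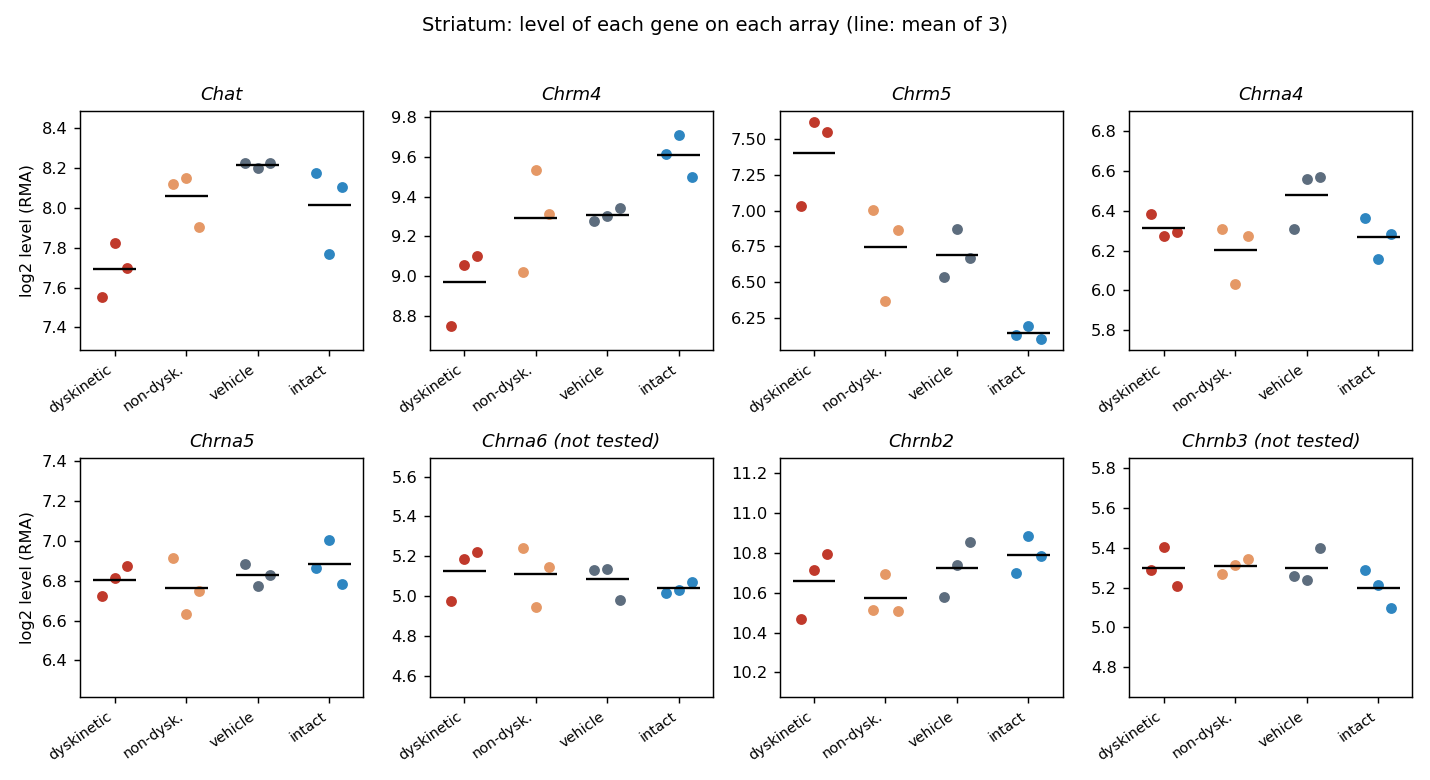
Log2 level (vertical axis) of each of the 8 genes on each striatal array, by group (horizontal axis); points are arrays and lines are means of 3. The dyskinetic arrays are highest for Chrm5 and lowest on average for Chat and Chrm4.

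Chat was lowest in dyskinetic rats. It read 7.55, 7.83 and 7.70 in dyskinetic rats, 8.12, 8.15 and 7.91 in non-dyskinetic rats, 8.22, 8.20 and 8.22 in vehicle rats, and 8.17, 7.77 and 8.10 in intact rats. All dyskinetic arrays were below all non-dyskinetic and all vehicle arrays, and intact array 2 fell within the dyskinetic range. Relative to vehicle rats Chat fell by 0.52 on the log2 scale (SE 0.11, limma adjusted p = 0.0077), to 0.695 times their level. The differences of -0.37 ± 0.11 from non-dyskinetic rats (adjusted p = 0.059) and -0.32 ± 0.11 from intact rats (adjusted p = 0.067) did not pass. Non-dyskinetic rats differed from vehicle rats by -0.16 (95% interval -0.38 to 0.07) and vehicle rats from intact rats by 0.20 (-0.02 to 0.43). The call against vehicle rats was lost when a gene's value was the median over its probe sets (-0.29, adjusted p = 0.29), and without intact array 2 the difference from intact rats passed (-0.45, adjusted p = 0.015).

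All 15 probe sets of Chat were lower in dyskinetic than in non-dyskinetic rats, by 0.10 to 0.83, and all 15 were lower than in vehicle rats, by 0.19 to 1.08, though none passed alone after adjustment over all probe sets, of which 0.228% and 0.384% were called in these comparisons. Slc18a3, which is transcribed from within the Chat gene and fills synaptic vesicles with acetylcholine, passed the test in no striatal comparison. Slc18a3 read 7.78, 7.85 and 7.93 in dyskinetic rats, 7.78, 7.76 and 7.66 in non-dyskinetic rats, 7.54, 7.92 and 8.18 in vehicle rats, and 8.06, 8.14 and 7.89 in intact rats. Its difference between dyskinetic and vehicle rats was -0.03 (95% interval -0.29 to 0.24, adjusted p = 0.95), and the interval for Chat was -0.75 to -0.30; the difference between these genes was not tested. Slc5a7, the choline transporter that feeds the same synthesis, read 9.08, 9.29 and 9.19 in dyskinetic rats, 9.50, 9.70 and 9.30 in non-dyskinetic rats, 9.41, 9.54 and 9.34 in vehicle rats, and 9.50, 9.52 and 9.40 in intact rats. Every dyskinetic array of Slc5a7 was below every other array, with differences of -0.32, -0.25 and -0.29 from non-dyskinetic, vehicle and intact rats that did not pass (adjusted p = 0.076, 0.19 and 0.078).

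Of 8 tested markers of cholinergic interneurons, Chat among them, 1 was lower in each dyskinetic comparison, beside 2.2%, 1.55% and 5.19% of all genes called lower against non-dyskinetic, vehicle and intact rats. The 8 differences ran from -0.44 to 0.12, from -0.52 to 0.02 and from -0.38 to -0.12 in these comparisons. The markers called were Slc17a8, a vesicular glutamate transporter of those cells, against non-dyskinetic rats (-0.44 ± 0.11, adjusted p = 0.039), Chat against vehicle rats, and Isl1, a transcription factor of those cells, against intact rats (-0.38 ± 0.08, adjusted p = 0.0085). A mean was also taken of 8 interneuron markers other than Chat, with Zic4, which was too dim to be tested, among them. It was 7.60, 7.64 and 7.68 in dyskinetic rats, 7.82, 7.81 and 7.75 in non-dyskinetic rats, 7.67, 7.80 and 7.89 in vehicle rats, and 7.84, 7.86 and 7.81 in intact rats. Dyskinetic arrays were below all non-dyskinetic and intact arrays in this mean, but vehicle array 1 lay within the dyskinetic range. The part of this mean in the Chat difference was not tested.

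Chrm4 was highest in intact rats. It read 8.75, 9.06 and 9.10 in dyskinetic rats, 9.02, 9.53 and 9.31 in non-dyskinetic rats, 9.28, 9.30 and 9.34 in vehicle rats, and 9.61, 9.71 and 9.50 in intact rats. Dyskinetic rats differed from intact rats by -0.64 ± 0.12 (adjusted p = 0.0028, 0.643 times the intact level), with no overlap of arrays. The levodopa-treated lesioned groups together differed by -0.48 ± 0.10 (adjusted p = 0.016), though non-dyskinetic array 2 overlapped the intact range, and this call was lost without intact array 1 (adjusted p = 0.064) or intact array 2 (adjusted p = 0.11). Neither the non-dyskinetic difference from intact rats (-0.32 ± 0.12) nor that of vehicle rats (-0.30 ± 0.12) passed, both at an adjusted p of 0.53. Dyskinetic rats differed from non-dyskinetic rats by -0.32 ± 0.12 and from vehicle rats by -0.34 ± 0.12, both at an adjusted p of 0.13. The mean of the striatal projection neuron markers was 11.57 to 11.63 in dyskinetic rats and 11.65 to 11.67 in intact rats, and its part in the Chrm4 difference was not tested.

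The remaining striatal members stayed within narrow ranges. Chrna4 lay between 6.03 and 6.57, Chrna5 between 6.63 and 7.00 and Chrnb2 between 10.47 and 10.88 over all 12 arrays. For dyskinetic against non-dyskinetic rats the intervals were -0.09 to 0.31 for Chrna4, -0.14 to 0.22 for Chrna5 and -0.12 to 0.30 for Chrnb2. Chrna6 (4.94 to 5.24) and Chrnb3 (5.10 to 5.40) were among the dimmest genes of the striatum, at percentiles 9.69 and 11.6, and were not tested there. Between the striatal groups other than the dyskinetic one, limma called none of the 6 tested members. Non-dyskinetic against vehicle rats called 0.0322% of all genes and 1 member had an unadjusted p under 0.05; non-dyskinetic against intact rats called 0.0482% and 3 members did; vehicle against intact rats called 0.442% and 3 members did. The shares of all genes with an unadjusted p under 0.05 were 6.7%, 8.56% and 7.78% in these comparisons. Arrays did not overlap for 2, 2 and 3 of the 6 members in these comparisons, beside 10%, 14.5% and 14.8% of all genes.

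The same contrast was then set side by side in the tissues, as the striatal difference minus the nigral difference, in a model of all 24 arrays that takes account of tissues from the same rat. The 5 members tested were those that passed the limit in both tissues. For levodopa-treated lesioned rats against intact rats Chrm5 gave 3.06 ± 0.22 (adjusted p = 3e-08): it was lower in the nigra (-2.12 ± 0.16) and higher in the striatum (0.93 ± 0.14), where the intact level lay below the limit on dim genes. Chrna5 gave 2.01 ± 0.23 (adjusted p = 2.6e-06) and Chrna4 0.82 ± 0.15 (adjusted p = 0.00064), from nigral differences of -2.11 and -0.82 and striatal differences of -0.10 and -0.01. Chrnb2 (0.38 ± 0.12, adjusted p = 0.053) and Chrm4 (-0.35 ± 0.13, adjusted p = 0.11) did not pass. These 3 of 5 calls, all positive, stand beside 6.61% of all genes called in that direction.
For dyskinetic against non-dyskinetic rats Chrm5 alone passed, with 1.27 ± 0.25 (adjusted p = 0.0082), from 0.66 in striatum and -0.61 in nigra, where 1.26% of all genes were called in that direction. This call was lost without striatal dyskinetic array 2 (1.14, adjusted p = 0.052). Chrm4 differed the other way, by -0.57 ± 0.15 (adjusted p = 0.067). With no filter on low levels, Chrna6 and Chrnb3 gave 1.32 and 1.42 in this comparison (adjusted p = 0.041 and 0.031), with striatal levels near the bottom of the range.

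At the level of single probe sets the nigral fall between dyskinetic and intact rats was spread along most transcripts. Between dyskinetic and intact rats, where 4.02% of all probe sets were called, the calls took in all 7 of Chrna6 (-3.32 to -2.78), all 8 of Chrnb3 (-3.86 to -3.17), all 4 of Chrm5 (-2.78 to -2.09), 7 of 8 of Chrna4 (-1.09 to -0.60), 5 of 8 of Chrnb2 (-0.72 to -0.30) and 0 of 2 of Chrm4. Chrna5 was uneven, with 7 of 10 called and differences from -4.18 to 0.11. In non-dyskinetic rats, where 0.659% of all probe sets were called, 5 of 7 of Chrna6, 6 of 8 of Chrnb3, 4 of 4 of Chrm5, 6 of 10 of Chrna5, 2 of 8 of Chrna4 and 1 of 8 of Chrnb2 passed. In vehicle rats, where 1.76% were, all of Chrna6, Chrnb3 and Chrm5, 7 of 10 of Chrna5, 6 of 8 of Chrna4 and 4 of 8 of Chrnb2 passed. The probe sets of Chrna6 and Chrnb3 thus differed little among themselves beside the size of the fall, whereas some of those of Chrna5 did not move. In the striatum all 4 probe sets of Chrm5 were higher in dyskinetic than in intact rats (0.69 to 2.01), 3 of them past the threshold, at a background of 0.911%. All 4 were also higher than in non-dyskinetic rats (0.40 to 0.94) and in vehicle rats (0.49 to 1.00), with 0 of 4 past the threshold in either comparison. Between dyskinetic and intact rats both probe sets of Chrm4 were lower (-0.80 and -0.47).

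**Figure D5:**
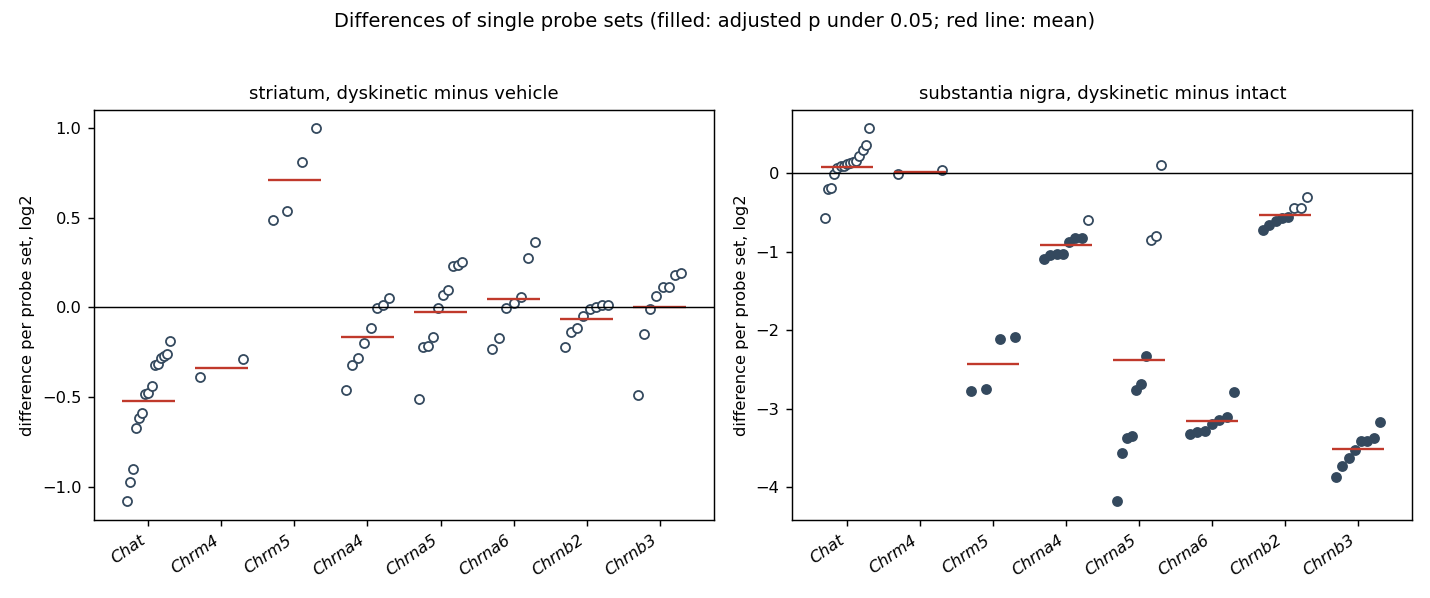
Log2 difference (vertical axis) of each probe set (points, filled where adjusted p was under 0.05) of each gene (horizontal axis, red line for the mean) between dyskinetic and vehicle rats in the striatum and between dyskinetic and intact rats in the nigra. Chrna6, Chrnb3 and Chrm5 probe sets cluster well below 0 in the nigra, Chrna5 is spread, and all 15 Chat probe sets lie below 0 in the striatum.

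Other genes of the cholinergic pathway were taken from a list of 27, of which 17 were tested in the nigra and 20 in the striatum; Ache, acetylcholinesterase, had no probe set of its own. In the nigra 2 of 17 were lower and 0 higher in dyskinetic rats than in intact rats, and likewise in non-dyskinetic rats, beside 10.5% and 3.97% of all genes called lower. These were Chrna3, the alpha3 subunit encoded beside Chrna5, and Prima1, the membrane anchor of acetylcholinesterase. Chrna3 read 6.95, 7.54 and 7.79 in dyskinetic rats, 7.86, 8.25 and 7.39 in non-dyskinetic rats, 7.16, 7.08 and 7.30 in vehicle rats, and 8.85, 9.53 and 9.67 in intact rats. Its differences from intact rats were -1.92 ± 0.25 (adjusted p = 0.00031), -1.52 ± 0.25 (adjusted p = 0.0034) and -2.17 ± 0.25 (adjusted p = 0.00014) in dyskinetic, non-dyskinetic and vehicle rats. Prima1 read 7.93, 7.92 and 8.26 in dyskinetic rats, 8.13, 8.35 and 8.05 in non-dyskinetic rats, 8.10, 7.95 and 8.25 in vehicle rats, and 8.81, 9.07 and 8.98 in intact rats, with a difference of -0.92 ± 0.12 in dyskinetic rats (adjusted p = 0.00024). Lesioned and intact arrays did not overlap in either gene. In vehicle rats 3 more were higher, where 5.52% of all genes were, namely Bche, butyrylcholinesterase (0.32 ± 0.08, adjusted p = 0.023), Chrm1, the M1 receptor (0.78 ± 0.21, adjusted p = 0.028), and Slc44a1, a choline transporter-like protein (0.33 ± 0.09, adjusted p = 0.029). All 3 were lost without vehicle arrays 1 and 3, at 0.35 (adjusted p = 0.14), 0.08 (0.75) and 0.24 (0.28), while Chrna3 (-2.27, adjusted p = 0.0043) and Prima1 (adjusted p = 0.0037) were kept.

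In the striatum 3 of 20 passed between dyskinetic and intact rats, beside 10.3% of all genes. Chrm1 was lower, with a difference of -0.24 ± 0.07 (adjusted p = 0.036), as was Chrm3, the M3 receptor, at -0.49 ± 0.13 (adjusted p = 0.025), while Chka, choline kinase, was higher by 0.38 ± 0.11 (adjusted p = 0.046). Chrm1 was also lower than in non-dyskinetic rats (-0.29 ± 0.07, adjusted p = 0.018), and was the 1 gene of 20 called there, beside 5.26% of all genes. It read 10.79, 10.72 and 10.84 in dyskinetic rats, 11.09, 11.07 and 11.07 in non-dyskinetic rats, 10.99, 10.87 and 10.91 in vehicle rats, and 11.05, 11.03 and 10.96 in intact rats, so each dyskinetic array was below every other array. Against vehicle rats none of the 20 passed in limma, and 6 had an unadjusted p under 0.05, beside 5.18% and 18% of all genes. Among striatal muscarinic genes, Chrm1, Chrm3 and Chrm4 were thus called lower and Chrm5 higher in dyskinetic than in intact rats. Chrm2, the M2 receptor, was tested and not called. The intact level of Chrm5 lay below the limit on dim genes.

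The genes whose levels ran most closely with a member were found among all tested genes of the tissue by Pearson's r over 12 arrays, as a description in which group differences take part. For nigral Chrna6 they were Dlk1 (0.991), Chrnb3 (0.988) and Slc6a3 (0.986). For Chrnb3 they were Slc10a4 (0.996), Slc18a2 (0.990), the vesicular monoamine transporter gene, and Chrna6 (0.988). Chrm5 ran with Cadps2 (0.995), Gch1 (0.990), which makes the cofactor of tyrosine hydroxylase, and Ppp2r5b (0.987), and Chrna5 with Eno3 (0.984), Slc18a2 (0.979) and Slc10a4 (0.978). Over the 9 lesioned arrays alone the same r stayed between 0.929 and 0.984 for these 4 genes.
Chrna4 ran with Slc45a1 (0.980), Tbc1d9 (0.979) and Plcb4 (0.978), and Chrnb2 with Fbxl2 (0.979), Maged1 (0.969) and Asb1 (0.969). Over the lesioned arrays r with Chrnb2 was 0.941 for Fbxl2, 0.725 for Maged1 and 0.680 for Asb1. Nigral Chrm4 had no such near neighbour, with Rab40b highest at 0.818. In the striatum Chat ran with Dcx (0.927), which encodes doublecortin, Washc4 (0.901) and Oxr1 (0.881). Striatal Chrm4 ran with Cbx7 (0.972), Ace (0.965) and Dusp7 (0.957), and striatal Chrm5 with Mest (0.935), Ptgs2 (0.926), the inducible cyclooxygenase, and Htr1b (0.918), a serotonin receptor. For the 3 striatal nicotinic members the highest values were 0.870 (Fndc8 with Chrna4), 0.868 (Ascl3 with Chrna5) and 0.963 (Tvp23a with Chrnb2).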

How the data were processed

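Levels were measured in 24 rat arrays, 12 per tissue and 3 per group, which the labels describe as biological replicates. The deposited values are log2 values to which the authors brought the arrays by robust multi-array averaging (oligo 1.34, R 3.2.3), per the submitters' processing notes; the genome build behind the probe annotation was not given in the sources used here. No count of reads or depth exists for arrays, and the number of arrays limits the precision. Array medians averaged 7.94 in striatum but 8.25 in nigra, and no level was compared between tissues.

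The array holds 213067 probe sets; the 172924 that name 1 gene were used, and 1661 with several names and 38482 without a name were left out. Symbols were updated through RefSeq's gene list for GRCr8 (12878 current, 3700 updated, 55 kept). Gene values were tested in limma 3.58.1 (R 4.3.3, data.table version 1.17.8; Python 3.11.15, pandas 2.3.3 and matplotlib 3.10.9 for tables and figures) with lmFit and eBayes, 1 mean per group and p adjusted by Benjamini and Hochberg over 12436 genes per tissue, threshold 0.05. Tissue differences used all 24 arrays and 12114 genes with animals as random blocks (correlation 0.155), and fits that leave out 1 array reuse that correlation. The standard error rests on a spread pooled over the groups.

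The members and lists were chosen with earlier results of these data known. Named by rule were the 8 members, Slc18a3, Slc5a7, Ache, other cholinergic genes past the threshold, 4 dopamine genes (Th, Slc6a3, Slc18a2 and Ddc), up to 6 markers past the threshold per list and the 3 genes most like each member. Alternatives changed the probe summary, the filter, the samples, the weights and the variance model. Within a tissue, arrays of different groups with the same replicate number came from different animals. The deviations of these same-numbered arrays from their group means correlated at -0.27 to 0.38 in striatum and -0.29 to 0.29 in nigra. Of 18 pairs, 6 and 5 were over 0.1, so they were not treated as pairs. No batch or scan date was given in the labels.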

Additional observations from a re-analysis of the deposited data

Results flagged for a closer look

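The responses of 6 genes to the lesion in levodopa-treated rats, and that of Chrm5 to dyskinesia, differed between tissues by the interaction term of limma with Benjamini-Hochberg adjustment. Each value is the striatal log2 difference minus the nigral one. For the lesion, 3 of 5 tested members and 3 of 17 other cholinergic genes were called. All were positive, beside 6.61% of all genes called in that direction. For dyskinesia, 1 of 5 members and 0 of 17 others were called, beside 1.26% of all genes called in the positive direction. For levodopa-treated lesioned against intact rats it was 3.06 ± 0.22 (SE) for Chrm5 (adjusted p = 3e-08), 2.01 ± 0.23 for Chrna5 (adjusted p = 2.6e-06), 0.82 ± 0.15 for Chrna4 (adjusted p = 0.00064), 1.60 ± 0.23 for Chrna3 (adjusted p = 5.6e-05), 0.84 ± 0.13 for Prima1 (adjusted p = 8.5e-05) and 0.42 ± 0.12 for Tmem35a, a chaperone of nicotinic receptors (adjusted p = 0.033). Striatal Chrm5 passed the limit of 6.21 on dim genes only through its lesioned groups, since its intact mean was 6.14. For dyskinetic against non-dyskinetic rats the value was 1.27 ± 0.25 for Chrm5 (adjusted p = 0.0082). That call was lost without striatal dyskinetic array 2 (1.14, adjusted p = 0.052).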

How the results depend on the processing

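Counts of members called kept within 1.5 times the reported count in 250 of 287 alternative values. In the nigra the 6 calls of each lesioned group against intact rats became 5 with dim probe sets left out and 4 with the lowest 50% of genes left out, where fewer members were tested, and array weights gave 7 in vehicle rats, the seventh being Chrm4, which was higher (0.34, adjusted p = 0.0103); leaving out 1 array gave 4 to 6 in non-dyskinetic rats and 6 in the others, and without both vehicle arrays that stand apart 5 were called in vehicle rats. The nigral comparisons with 0 calls gave 1 for dyskinetic against non-dyskinetic rats without both vehicle arrays, and, with array weights, 1 for dyskinetic against vehicle rats and 2 for non-dyskinetic against vehicle rats. In the striatum, dyskinetic against intact rats gave 1 in place of 2 with dim probe sets left out or the lowest 50% of genes left out, as did the levodopa-treated lesioned groups against intact rats; dyskinetic against vehicle rats gave 1 in place of 2 under these and with the median over probe sets; dyskinetic against non-dyskinetic rats gave 0 in place of 1 with dim probe sets left out or only the groups compared; vehicle against intact rats gave 1 in place of 0 with array weights or only the groups compared. The tissue difference between dyskinetic and non-dyskinetic rats gave 0 in place of 1 with dim probe sets or the lowest 50% left out and 3 with no filter; that of levodopa-treated lesioned against intact rats gave 5 in place of 3 with array weights or no filter and 1 with the lowest 50% left out. Leaving out 1 array at a time gave 0 to 1 calls for nigral dyskinetic against non-dyskinetic rats, 0 to 2 for nigral non-dyskinetic against vehicle rats, 2 to 3, 0 to 2 and 1 to 2 for striatal dyskinetic rats against intact, non-dyskinetic and vehicle rats, 1 to 2 for the levodopa-treated lesioned striatum, and 0 to 2 and 3 to 4 for the tissue differences. With the replicate block, which pairs arrays that share only a number, the tissue difference of levodopa-treated lesioned against intact rats called 4 in place of 3, and the other counts did not change. The sign of nigral Chrm4 turned without both vehicle arrays, to 0.0883 for dyskinetic against vehicle rats and -0.0769 for vehicle against intact rats, and signs also turned for Chrnb2 and Chrna4, which no fit called against vehicle rats. Beyond the members, the number of all genes called ranged over the alternatives from 1003 to 3307 (reported 1996) for nigral dyskinetic against intact rats, from 222 to 991 (584) for non-dyskinetic against intact rats, from 544 to 3725 (1589) for vehicle against intact rats, from 0 to 104 (30) for dyskinetic against non-dyskinetic rats and from 20 to 3393 (276) for dyskinetic against vehicle rats. In striatum it ranged from 719 to 1926 (1281), 293 to 945 (654) and 381 to 1152 (644) for dyskinetic against intact, non-dyskinetic and vehicle rats. Causes of these shifts were not tested. In neither tissue was Chrm5 tested with dim probe sets or the lowest 50% of genes left out. Signal over background limits Chrna6, Chrnb3 and Chrm5 in striatum, Chrm5 most in intact rats. In nigra it limits Chat and the lowest lesioned arrays of Chrm5.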

Other observations

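Ngfr, the low-affinity nerve growth factor receptor, which marks basal forebrain cholinergic neurons, was higher in the striatum of dyskinetic rats. It read 7.48, 7.35 and 6.99 in dyskinetic rats, 6.70, 6.65 and 6.72 in non-dyskinetic rats, 6.60, 6.77 and 6.68 in vehicle rats, and 6.61, 6.61 and 6.63 in intact rats, with no overlap between dyskinetic arrays and the others. The log2 differences were 0.58 ± 0.10 (SE) from non-dyskinetic rats (limma adjusted p = 0.0033), 0.59 ± 0.10 from vehicle rats (adjusted p = 0.0024) and 0.66 ± 0.10 from intact rats (adjusted p = 0.00068). Ngfr was the 1 called of 3 tested markers of those neurons, beside 5.26%, 5.18% and 10.3% of all genes called in these comparisons. Arrays did not overlap for 23.6%, 23% and 33.3% of all genes. The other markers, Gbx1 and Lhx8, did not pass in these comparisons, with differences from -0.15 to 0.16. The Ngfr difference runs opposite in direction to Chat, which was lowest in the same rats.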
